A study of Homo sapiens with 12 samples.

Results

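The cytoplasmic ribosomal protein genes were taken as the rows whose symbol has the form RPL or RPS followed by a number (with an optional A or X), together with RPLP0, RPLP1, RPLP2 and RPSA, and with at least 30 counts in every library. The rule found 77 genes of the 19293 in the table: 31 of the small (40S) subunit, 43 of the large (60S) subunit and the 3 proteins of the P stalk. No gene lay near the count minimum, since the lowest count of any of the 77 in any library was 1473 and no symbol match was lost to the minimum. The members were thus selected on symbol and on that count minimum in all 12 libraries, and on no contrast between groups.

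The cells were HT1080, an established human fibrosarcoma line, at passage 15 to 20. The 12 libraries formed 4 groups of 3: untreated cells, cultures with interferon gamma (IFNγ, a cytokine) at a dose of 10 ng/ml, cultures that received 20 Gy of radiation, and cultures that received both, called the combination here. The labels give 1 harvest time, 24 h after treatment, and no agent other than these. The labels number the 3 libraries of a group without saying if each was grown apart. The p-values therefore rest on differences among these 12 libraries, and those may be technical in part. Because the RNA is from whole cultures, a change in cell composition and a change in RNA per cell cannot be told apart.

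Each ribosome is assembled in the nucleolus from ribosomal RNA and about equal numbers of its proteins. Vertebrate ribosomal protein mRNAs carry a 5′ terminal oligopyrimidine (TOP) tract: they start at a C followed by an unbroken run of C and T, through which mTORC1 and the binding protein LARP1 control their translation and stability. Several of the proteins have a second role outside the ribosome: free RPL5 and RPL11, bound to 5S ribosomal RNA, inhibit the ubiquitin ligase MDM2, and RPL13A released from the 60S subunit joins the IFNγ-activated inhibitor of translation (GAIT) complex in myeloid cells.

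The first bases of the mRNAs are shown for the genes on which the radiation results turn, because the TOP tract is the feature that the family shares. They are RefSeq sequences on GRCh38.p14, running 5′ to 3′ from 10 bases before the listed start to 20 bases from it, and capitals mark the run of C and T that begins at the listed start. The first group rose after radiation whether or not IFNγ was present.
RPL13A (chr19:49487598-49487627, plus strand): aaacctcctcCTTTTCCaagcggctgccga
RPL3 (chr22:39319604-39319633, minus strand): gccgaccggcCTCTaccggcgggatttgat
RPS9 (chr19:54200848-54200877, plus strand): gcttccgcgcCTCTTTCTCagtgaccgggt
RPS19 (chr19:41860245-41860274, plus strand): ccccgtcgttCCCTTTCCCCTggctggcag
RPL28 (chr19:55385922-55385951, plus strand): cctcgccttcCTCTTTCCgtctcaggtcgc
RPL12 (chr9:127451387-127451416, minus strand): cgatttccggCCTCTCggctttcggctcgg

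The second group fell after radiation in both settings.
RPS15 (chr19:1438386-1438415, plus strand): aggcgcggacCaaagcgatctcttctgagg
RPL35 (chr9:124861938-124861967, minus strand): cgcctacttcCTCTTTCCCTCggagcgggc
RPS7 (chr2:3575250-3575279, plus strand): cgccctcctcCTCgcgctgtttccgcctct
RPL18 (chr19:48619159-48619188, minus strand): agcccgttctCTCTTTCCggacctggccga
RPL27 (chr17:42998409-42998438, plus strand): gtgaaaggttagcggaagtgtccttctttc
RPL6 (chr12:112409266-112409295, minus strand; 1 of its 2 listed starts): gacggcgcgtgcactgtgttcctggtcctg

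The last pair is shown because RPS27L, a paralog of RPS27 outside the 77, rose far more than any of them; RPS27 rose after radiation alone.
RPS27 (chr1:153990752-153990781, plus strand): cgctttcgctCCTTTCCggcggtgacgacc
RPS27L (chr15:63157458-63157487, minus strand): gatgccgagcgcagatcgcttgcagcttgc

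The RefSeq table of starts matched 62 of the 77 genes by symbol. A TOP-type start, taken here as a C at the listed start within a run of at least 5 pyrimidines read on the gene's own strand, was present for 46 of the 62 genes (74.2%), against 5.14% of the 27305 genes in the table. Of the genes that rose in both settings, 5 of the 6 with a listed start had one, RPL3 being the exception with a run of 4. Of the 6 that fell in both settings, 2 had one, RPL18 and RPL35. RPS19 has another listed start without such a run. A listed start is an annotation and was not measured in these cells, and with groups of this size the difference between them is given as a description only.

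Library totals ran from 9675126 to 11010656 counts. The 77 genes held between 5.34% and 5.83% of all counts. The share of the mitochondrially encoded genes differed with irradiation, from 3.36% to 3.61% of counts in the 6 unirradiated libraries to between 4.25% and 4.46% in the 6 irradiated ones, and its part in the results below was not tested. Of the mesenchymal markers listed for a fibrosarcoma line, 8 of 10 were expressed highly enough to be tested, against 1 of 5 epithelial markers (CLDN4), 0 of 3 endothelial and 0 of 5 immune markers.

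Levels per length, in counts per 1000000 (CPM) per kilobase of the median annotated transcript, spanned 25.6-fold among the 77. RPS2, a 40S protein near the mRNA entry channel, had the highest level at 3085 CPM per kb, followed by RPLP0, the base of the P stalk that recruits elongation factors, at 2292. RPS28 had the lowest at 120.7, over an annotated median length of 1326 bases, and the median of the 77 was 979. A level per kb depends on the annotated length, which was not measured here. Replicates were close: the pooled within-group SD of log2 CPM had a median of 0.040 over the 77 genes and reached 0.136 for RPS29 and 0.117 for RPS21.

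As a family, the genes hardly moved. The summed share was 5.59% ± 0.179 (SD, n = 3) in untreated cells, 5.50% ± 0.148 with IFNγ, 5.833% ± 0.0011 after radiation and 5.55% ± 0.093 in the combination. The 3 untreated libraries had shares of 5.77%, 5.42% and 5.58%, and the IFNγ libraries 5.53%, 5.63% and 5.34%. The libraries given radiation alone had 5.832%, 5.834% and 5.832%, and the combination libraries 5.66%, 5.50% and 5.49%. All 3 libraries given radiation alone lay above the other 9, while the other 3 groups, the combination included, overlapped.

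The median gene's deviation from its mean over the 12 libraries, on the log2 CPM scale after library scaling, ran from -0.069 in untreated replicate 2 to 0.052 in IFNγ replicate 2. The untreated group alone spanned 0.101, more than the distance between any pair of group means. The results that follow are therefore given gene by gene.

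**Figure D1:**
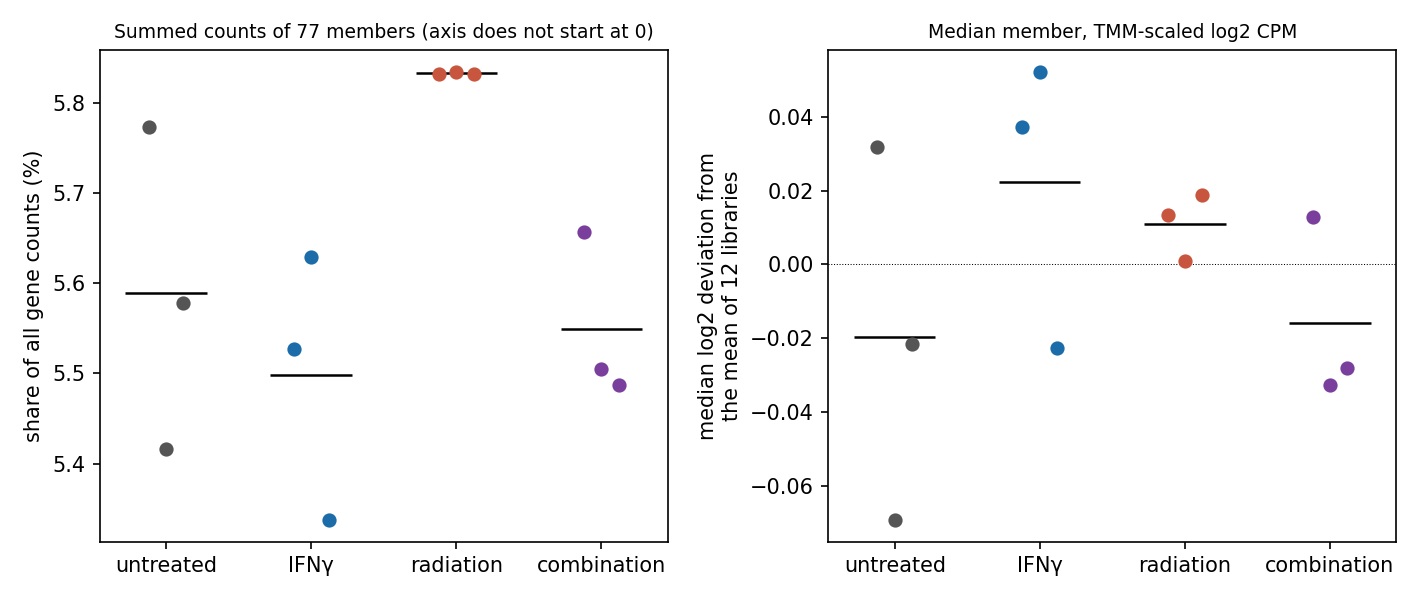
Left, the share of all gene counts (%) held by the 77 genes; right, the median over the 77 genes of log2 CPM minus the gene's mean over 12 libraries. Points are libraries and lines are group means (n = 3). The 3 libraries given radiation alone lie together at 5.83% on the left. On the right the untreated libraries spread from -0.069 to 0.032.

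Radiation raised some ribosomal protein mRNAs and lowered others by small amounts. Against untreated cells, 22 of the 77 genes rose and 6 fell at an adjusted p under 0.05 (edgeR quasi-likelihood F test, Benjamini-Hochberg over 12160 genes tested). That is 36.4% of the family against 56.1% of all genes tested (27.9% higher and 28.2% lower). The median log2 fold change was 0.034 for the family and 0.006 for all genes tested, and the changes ran from -0.19 to 0.22. The libraries of the 2 groups did not overlap for 29 of the 77 genes, against 60.8% of all genes tested. The 40S genes had 9 higher and 2 lower of 31, the 60S genes 12 higher and 4 lower of 43, and RPLP0 was the 1 of 3 stalk genes that rose.

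The 22 to 6 split was 27 to 3 with scaling by library totals and 49 to 3 with scaling by a curve over abundance. It was 9 to 9 when libraries were scaled on the 77 genes alone. That family scale compares each gene with its family and so sets the family's own shift aside. The split was 32 to 4 without untreated replicate 1 and 12 to 9 without untreated replicate 2. The family's median was 0.050 (all genes tested, 0.004) without replicate 1 and 0.007 (all genes tested, 0.008) without replicate 2. Its upward offset from all genes thus depended on untreated replicate 2. The individual genes below are those that were called in cells without and with IFNγ, 2 comparisons that share no library.

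In the presence of IFNγ (the combination against IFNγ alone; the labels give no order of the agents), radiation gave 8 genes higher and 23 lower, or 40.3% of the family against 60.7% of all genes tested (30.3% higher and 30.4% lower). The groups did not overlap for 30 of the 77, against 64.2% of all genes tested. The median was -0.038 for the family and 0.001 for all genes tested. This split was 10 to 12 with library totals, 8 to 15 with upper-quartile scaling and 26 to 5 with the abundance curve. It was 10 to 15 with a curve over transcript GC content. The 10 to 9 on the family scale cannot show the family's direction, since that scale sets the family's own shift aside. The family's median minus that of all genes was -0.038 in the main fit, with library totals and with the upper quartile. It was -0.036 with the GC curve and 0.044 with the abundance curve. Among genes with at least 100 counts in every library it was -9.3e-05, so the family's relative fall was absent there. In that fit 39 of the 77 changes were above 0 and 38 below, against 19 and 58 in the main fit. Without IFNγ replicate 1 the 31 calls became 20.

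The 2 comparisons ordered the 77 genes alike. Pearson's r between the log2 fold changes was 0.89 and Spearman's rho 0.85 over the 77 genes, given as a description because the genes share libraries and depth within each comparison. The r was between 0.84 and 0.93 under the other settings tried. Called higher in both were 7 genes, which is 31.8% of the 22 and 87.5% of the 8, and called lower in both were 6 genes, 100% of the 6 and 26.1% of the 23. Over all genes tested, 23.1% were called higher in both and 23.8% lower in both, against 9.09% and 7.79% of the family. RPL7 alone was called in opposite directions.

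**Figure D2:**
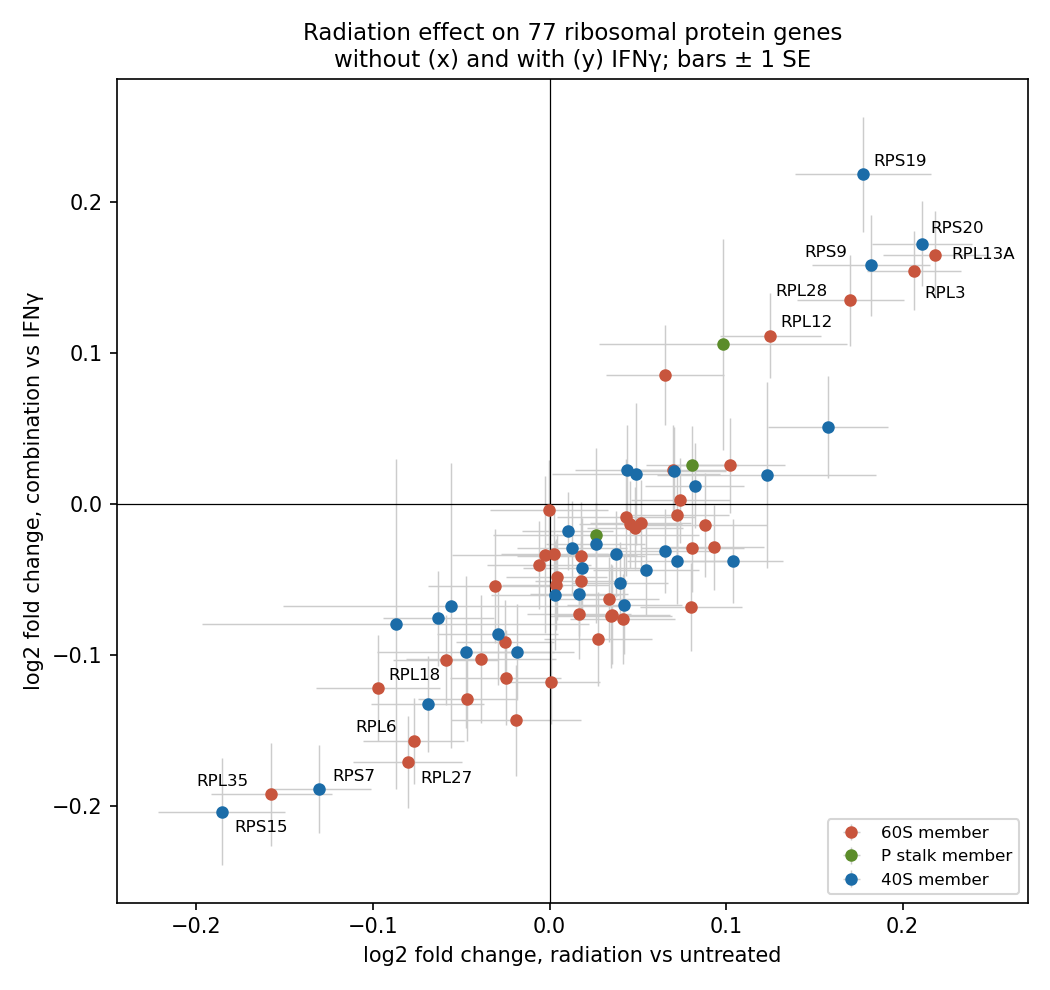
Log2 fold change after radiation for each of the 77 genes without IFNγ (x axis) and with IFNγ (y axis); the axes share no library, colours give the subunit and bars are ± 1 SE. The 7 named genes at the upper right were higher in both comparisons and the 6 named at the lower left were lower in both; most of the rest lie below the horizontal line and right of the vertical line.

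RPL13A, a 60S surface protein and the GAIT component, was at 1445, 1316 and 1377 CPM in untreated cells and at 1607, 1591 and 1616 CPM after radiation. It was at 1344, 1403 and 1295 CPM with IFNγ and at 1530, 1512 and 1491 CPM in the combination. All 6 irradiated libraries lay above all 6 unirradiated ones. The log2 change was 0.22 ± 0.029 (SE) without IFNγ, or 16.3% higher (edgeR adjusted p = 5.83e-09), and 0.17 ± 0.029 with it (adjusted p = 2.59e-06). Its 3 partners in the GAIT complex, which it joins as a protein, went the other way after radiation: SYNCRIP fell by 0.53, EPRS by 0.34 and GAPDH by 0.14 on the log2 scale. Over all genes tested, 28.2% were lower after radiation alone. With IFNγ alone 2 of the 3 partners were called higher (between 1 and 2 under the other settings), against 15.0% of all genes tested. Between IFNγ and untreated cells RPL13A did not pass the test (log2 change -0.034, 95% interval -0.092 to 0.025). Between the combination and radiation alone it fell by 0.087 ± 0.029, with no overlap (adjusted p = 0.0193, up to 0.149 under the other settings).

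RPS20, a 40S head protein, was at 679.7, 656 and 659 CPM in untreated cells and at 773, 768 and 768 CPM after radiation. With IFNγ it was at 680.3, 686 and 649 CPM, and in the combination at 766, 756 and 749 CPM. The irradiated and unirradiated libraries did not overlap. The log2 changes were 0.21 ± 0.028 (edgeR adjusted p = 5.44e-09) and 0.17 ± 0.028 (adjusted p = 5.42e-07).

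RPL3, which helps shape the peptidyl transferase centre of the 60S subunit, was at 1609, 1554 and 1611 CPM in untreated cells and at 1836, 1846 and 1825 CPM after radiation. The IFNγ libraries were at 1622, 1635 and 1592 CPM and the combination libraries at 1860.2, 1784 and 1754 CPM. Every irradiated library was again above every unirradiated one. RPL3 rose by 15.4% without IFNγ (log2 0.21 ± 0.026, edgeR adjusted p = 1.61e-09) and by 11.3% with it (log2 0.15 ± 0.026, adjusted p = 1.28e-06).

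RPS19, whose mutations cause Diamond-Blackfan anaemia, was at 494, 443 and 460 CPM in untreated cells and at 523, 523 and 534 CPM after radiation. With IFNγ it was at 469, 497 and 436 CPM, and in the combination at 543, 527 and 562 CPM. The 6 irradiated libraries lay above the other 6, although the untreated and IFNγ libraries were widely spread. The log2 changes were 0.18 ± 0.038 (edgeR adjusted p = 0.000209) and 0.22 ± 0.038 (adjusted p = 1.11e-05).

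RPS9, a 40S body protein that helps set decoding accuracy, was at 496, 459 and 457 CPM in untreated cells and at 530.2, 534 and 538 CPM after radiation. RPL28, a 60S protein found in eukaryotes, was at 673, 619.8 and 617 CPM in untreated cells and at 723, 719 and 708 CPM after radiation. For both genes, irradiated and unirradiated libraries stayed apart when the IFNγ and combination groups were added. RPS9 rose by 13.4% without IFNγ and 11.6% with it, and RPL28 by 12.5% and 9.80%.

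RPL12, which sits at the base of the P stalk, was at 883, 842 and 862 CPM in untreated cells and at 959, 913 and 948 CPM after radiation. With IFNγ it was at 925, 920.0 and 878 CPM, and 2 of these lay above the lowest library given radiation alone, so the 6 irradiated and 6 unirradiated libraries overlapped. It rose by 9.06% without IFNγ (edgeR adjusted p = 0.000164) and by 8.04% with it (adjusted p = 0.000607). The other stalk genes were less clear. RPLP0 rose after radiation alone (log2 0.081 ± 0.026, edgeR adjusted p = 0.00663, lost under 2 of 25 other settings, up to 0.129), with 0.026 ± 0.026 in the presence of IFNγ. RPLP1 had log2 changes of 0.098 ± 0.070 and 0.11 ± 0.070, neither of which passed the test.

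RPS15, a 40S head protein, fell the most. It was at 368, 322 and 338 CPM in untreated cells and at 303, 302 and 299 CPM after radiation, and at 361, 366 and 340.5 CPM with IFNγ against 308, 306 and 312 CPM in the combination. No irradiated library reached any unirradiated one. RPS15 fell by 12.1% without IFNγ (log2 -0.19 ± 0.036, edgeR adjusted p = 1.42e-05) and fell by 13.2% with it (log2 -0.20 ± 0.036, adjusted p = 2.08e-06).

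RPL35, which lies at the peptide exit tunnel of the 60S subunit, was at 501, 453 and 465 CPM in untreated cells and at 427, 425 and 419.9 CPM after radiation. With IFNγ it was at 508, 501 and 466 CPM, and in the combination at 443, 434 and 414 CPM. The irradiated libraries were all lower. The log2 changes were -0.16 ± 0.034 (edgeR adjusted p = 0.000107) and -0.19 ± 0.034 (adjusted p = 3.52e-06).

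RPS7, a 40S protein that can also bind MDM2, was at 788, 738 and 780.4 CPM in untreated cells and at 709, 686 and 711 CPM after radiation. With IFNγ it was at 755, 758 and 732 CPM, and in the combination at 672, 645 and 653 CPM. The combination libraries were below all the others, and between the combination and untreated cells RPS7 fell by 14.6%, more than any other of the 77 genes. Its log2 changes after radiation were -0.13 ± 0.029 (edgeR adjusted p = 0.000136) and -0.19 ± 0.029 (adjusted p = 1.55e-07).

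RPL18, RPL27 and RPL6, all 60S proteins, fell after radiation by 0.097, 0.080 and 0.077 on the log2 scale without IFNγ and by 0.12, 0.17 and 0.16 with it. Irradiated and unirradiated libraries did not overlap for RPL27 and RPL6, and did for RPL18. The 7 genes that rose, and RPS15, RPL35 and RPS7, kept their calls in both comparisons under all 25 other settings tried, whereas RPL18, RPL27 and RPL6 lost a call in some of them. Among all 77 genes, the 6 irradiated libraries were all above the 6 unirradiated ones for RPS20, RPS19, RPL13A, RPS9, RPL28 and RPL3, and all below them for RPS7, RPS14, RPL35, RPL6, RPL27 and RPS15. Over all genes tested, 17.3% were separated upward and 19.2% downward in this way.

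**Figure D3:**
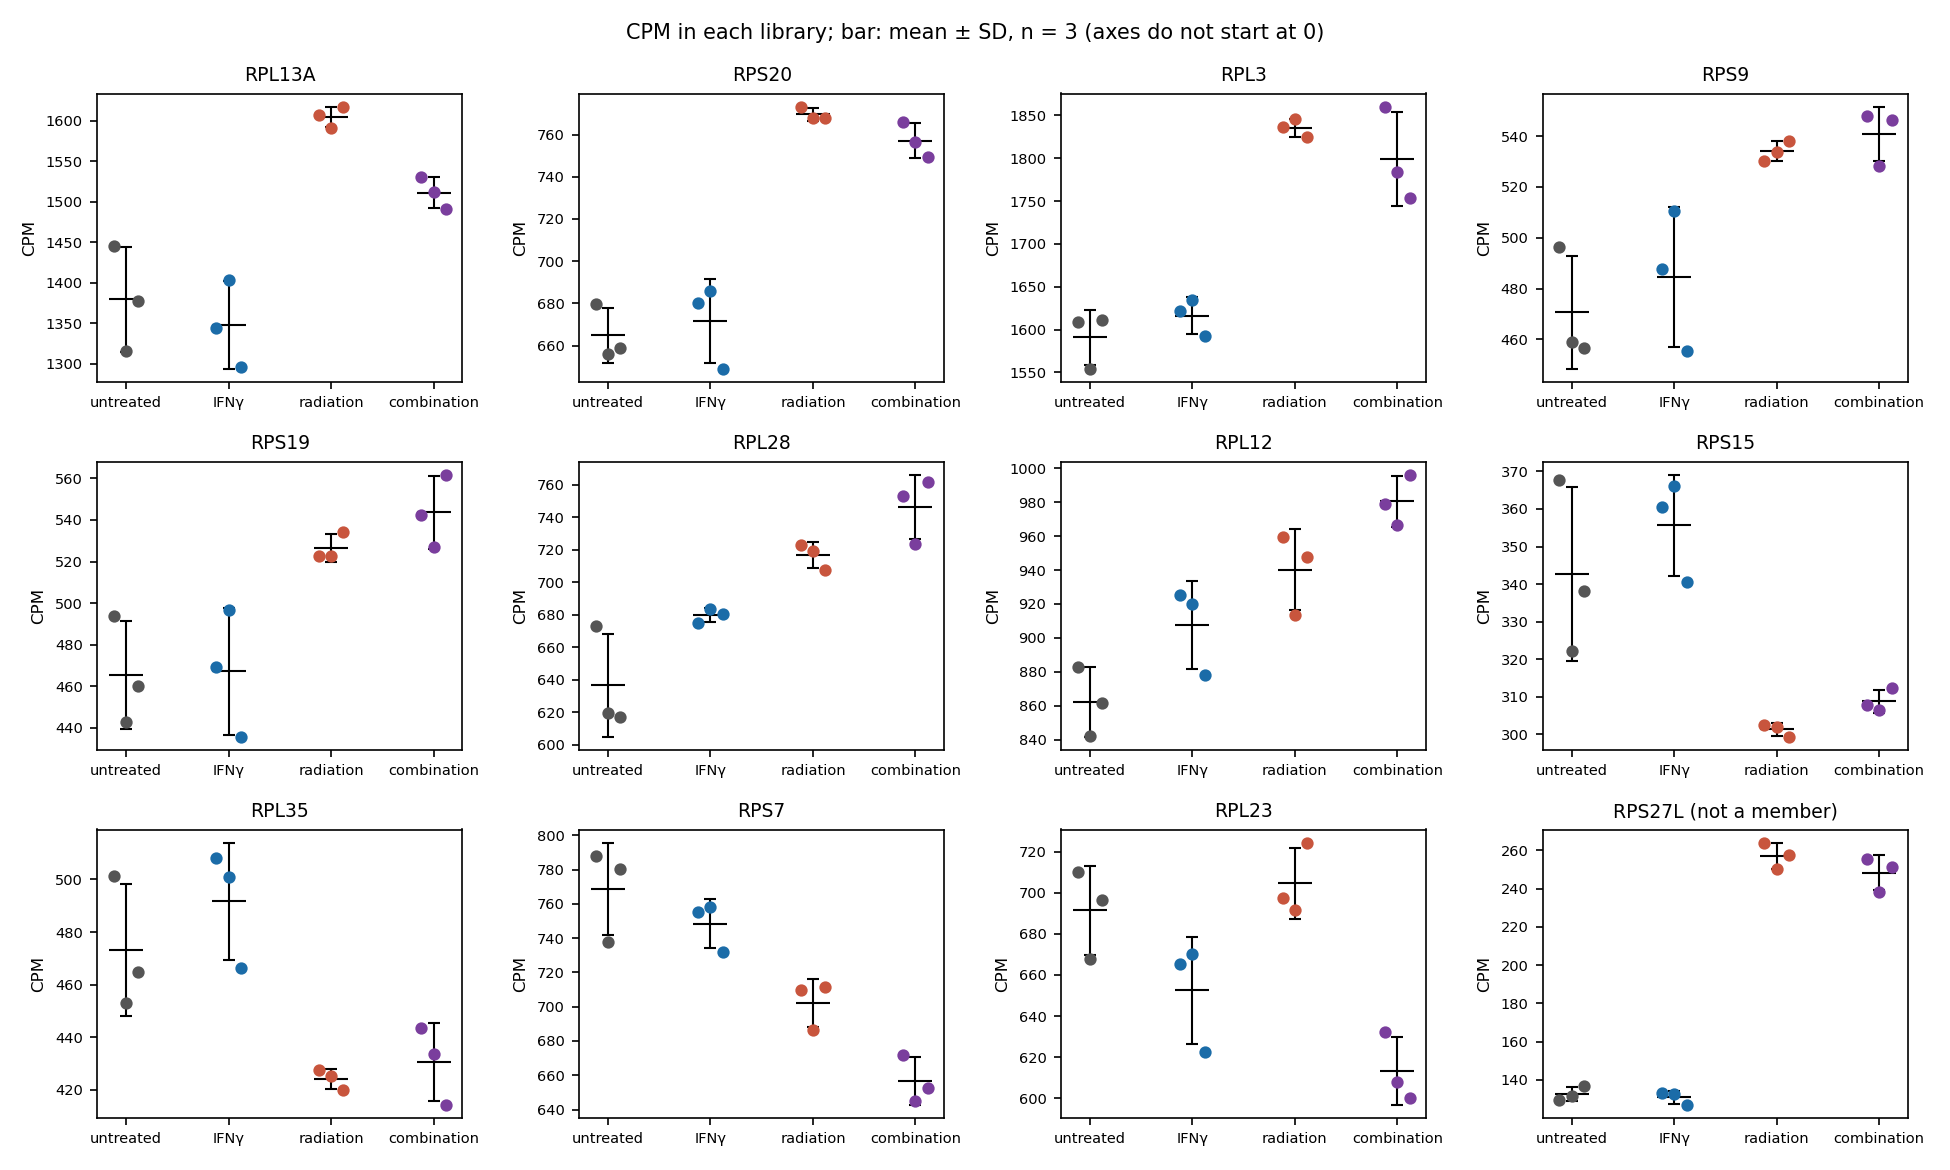
CPM in each library for 7 genes higher after radiation, 3 lower after radiation, RPL23, and RPS27L, which is outside the 77. Points are libraries, bars are mean ± SD (n = 3) and axes do not start at 0; RPS27L lies between 127 and 137 CPM in unirradiated cells and between 238 and 264 CPM in irradiated cells.

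The genes tied to MDM2 showed no common direction. RPL11 rose slightly after radiation alone, from 794, 748 and 748 CPM to 818, 788 and 802 CPM, with overlapping groups (log2 0.072 ± 0.030, edgeR adjusted p = 0.0341, lost under 6 of 25 other settings, up to 0.246). RPL5 was at 994, 947 and 985 CPM in untreated and 982, 968 and 979 CPM in irradiated cells, a log2 difference of 0.001 ± 0.028. RPS27A, made as a fusion with ubiquitin, gave 0.042 ± 0.033. In the same libraries MDM2 rose by 2.14 ± 0.033 on the log2 scale. With IFNγ present, RPL5 was lower by 0.12 after radiation (edgeR adjusted p = 0.000248, lost under 2 of 25 other settings, up to 0.362). MDM2 then rose by 2.19. RPS7, which can also bind MDM2, fell after radiation in both settings, as given above.

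RPS27L stood apart from the family. This paralog of RPS27 was at 129, 132 and 137 CPM in untreated cells and at 264, 250.3 and 257 CPM after radiation. It was at 133, 133 and 127 CPM with IFNγ and at 256, 238 and 251 CPM in the combination. Irradiated libraries were 1.94-fold above untreated ones without IFNγ, with no overlap (log2 0.96 ± 0.038, edgeR adjusted p = 1.99e-29), and the log2 change with IFNγ was 0.92 ± 0.038 (adjusted p = 9.59e-29). RPS27 itself went from 411, 395 and 396 CPM to 443, 453 and 445 CPM (log2 0.16 ± 0.034, adjusted p = 8.45e-05). With IFNγ, RPS27 changed by 0.051 ± 0.034, which did not pass the test. The sources used here do not say how reads shared by the 2 genes were assigned.

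Of the other paralogs, RPL7L1, a nucleolar relative of RPL7, fell by 0.27 after radiation alone and by 0.36 in the presence of IFNγ. RPL26L1 fell by 0.21 after radiation alone. RPL22L1 and RPL36AL gave 0.078 ± 0.037 and 0.016 ± 0.046, which did not pass the test. FAU, which encodes a 40S protein fused to a ubiquitin-like sequence, gave 0.053 ± 0.045 and did not pass the test. RACK1, a 40S-bound scaffold encoded by a TOP mRNA, fell by 0.13 ± 0.027 without IFNγ and by 0.15 ± 0.027 with it.

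Related gene lists are set beside all genes tested, of which 27.9% were higher and 28.2% lower after radiation alone. Of 37 ribosome biogenesis factors tested, 28 fell (75.7%) and 1 rose (2.70%), with a median log2 change of -0.23. The largest falls were in FBL, the rRNA methyltransferase fibrillarin, by 0.63, in RRP9, a U3 snoRNP protein, by 0.57, and in NCL, nucleolin, by 0.49. With IFNγ present 35 fell and 1 rose (median -0.33). IFNγ alone gave 12 higher and 1 lower (median 0.077), against 15.0% higher and 14.1% lower of all genes tested, and this count ran from 4 to 15 higher and the median from 0.019 to 0.089 under the other settings. For radiation, under the other settings, between 27 and 29 fell after radiation alone and between 32 and 35 with IFNγ present.

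RNA polymerase I, which transcribes ribosomal RNA, had 6 of 14 tested genes lower (42.9%) and 2 higher (14.3%) after radiation alone, led by UBTF (-0.61), TAF1B (-0.59) and CD3EAP (-0.56). Mitochondrial ribosomal protein genes, whose products form a separate ribosome, had 41 of 78 lower (52.6%) and 5 higher (6.41%), with a median of -0.16. Among them MRPL54 fell by 0.78, MRPS2 by 0.67, and MRPL49 rose by 0.57. The cytoplasmic set had 6 of 77 lower under the same test.

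Of 34 initiation factors tested, 18 fell (52.9%) and 8 rose (23.5%, near the 27.9% of all genes tested, and between 4 and 11 genes under the other settings) after radiation alone, with the largest falls in EIF1 (-0.51), EIF5 (-0.43) and EIF4G1 (-0.41). The 11 elongation and release factors had 4 higher and 4 lower (36.4% each), with EIF5A falling by 0.41 and EEF1A1, the main carrier of aminoacyl-tRNA and itself encoded by a TOP mRNA, rising by 0.18 ± 0.026. Of 7 other TOP mRNAs, 6 fell (85.7%, against 28.2% of all genes tested), among them HNRNPA1 (-0.36), NPM1 (-0.30) and NACA (-0.19), and TPT1 rose by 0.19. EEF1A1 and TPT1 were named after their values were seen.

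Of 16 mTORC1 and TOP mRNA regulators tested, 6 rose (37.5%) and 5 fell (31.2%) after radiation alone, shares near those of all genes tested (27.9% and 28.2%). The mTORC1 inhibitors SESN1 and SESN2 rose by 1.57 ± 0.065 and 0.53 ± 0.067, and SESN3 rose by 1.54. DDIT4, another mTORC1 inhibitor, fell by 0.88 and LARP1, the TOP mRNA binding protein, by 0.41 ± 0.032. MYC, which activates ribosome biogenesis genes, fell by 1.07 ± 0.068.

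**Figure D4:**
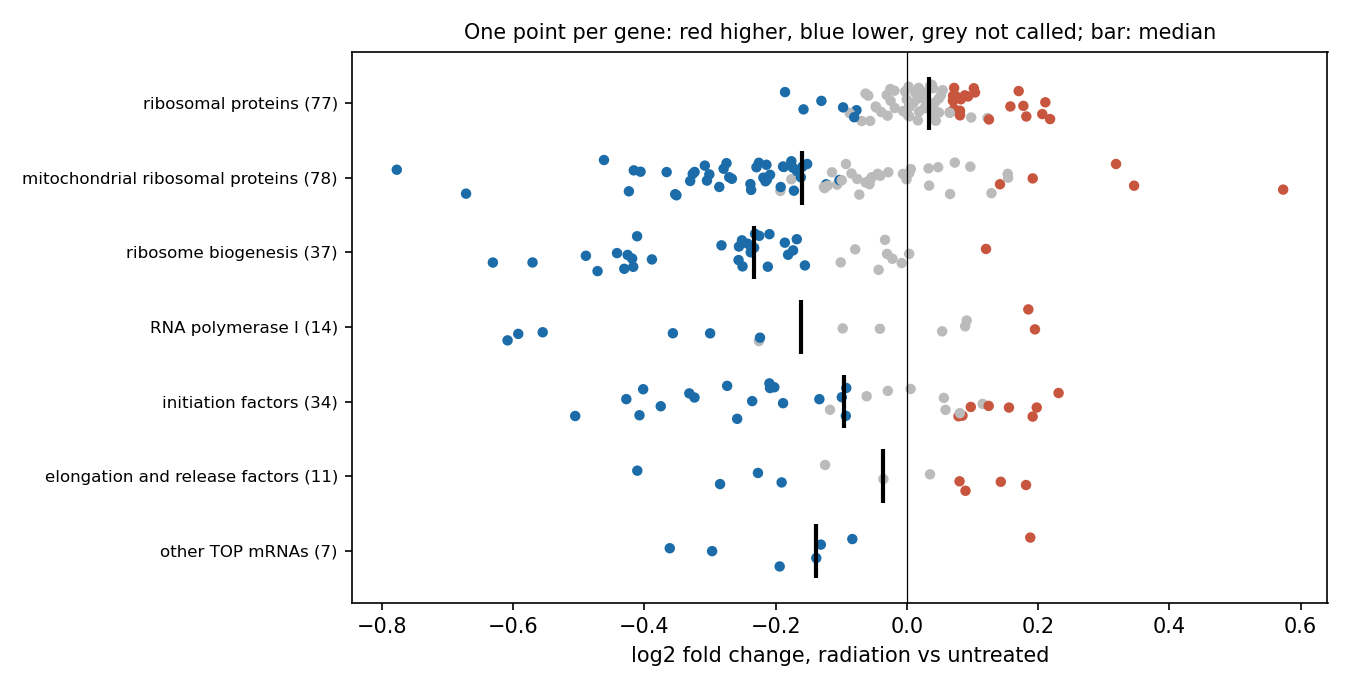
Log2 fold change after radiation alone for the 77 ribosomal protein genes and 6 related lists, 1 point per gene tested; red is called higher, blue called lower and grey not called, and black bars are medians. The 77 genes lie between -0.19 and 0.22 around a median of 0.034, while the 37 biogenesis factors have a median of -0.23 and the 78 mitochondrial ribosomal protein genes a median of -0.16.

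IFNγ changed few ribosomal protein mRNAs in unirradiated cells. Against untreated cells 9 of the 77 rose and 1 fell, while 29.1% of all genes tested were called (15.0% higher and 14.1% lower). The groups did not overlap for 12 of the 77, against 39.5% of all genes tested. The split depended on the scaling. The 9 to 1 was 0 to 8 with library totals, 1 to 6 with the upper quartile and 4 to 4 with the abundance curve. It was 21 to 1 with the GC curve and 0 to 2 on the family scale. Over all genes tested, 1227 were called higher and 2715 lower with library totals, and 1304 and 2507 with the upper quartile. The family's median log2 change was 0.039 (all genes tested, -0.005). It became -0.018 with library totals (all genes tested, -0.063) and -0.009 with the upper quartile (all genes tested, -0.053). The family's median stayed above that of all genes, by 0.045, 0.045 and 0.044 in these fits, and by 0.011 with the abundance curve. The split was 28 to 0 without untreated replicate 1 and 18 to 0 without IFNγ replicate 3, and 5 to 1 without untreated replicate 2 or without IFNγ replicate 1.

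RPS24, a 40S protein, had the largest rise with IFNγ. It was at 741, 742 and 752 CPM in untreated cells and at 817, 821 and 800.0 CPM with IFNγ, with no overlap (log2 0.13 ± 0.028, edgeR adjusted p = 0.000309, and between 4.79e-05 and 0.0514 under the other settings). RPSA, the 40S protein also known as the laminin receptor, went from 1161, 1130.5 and 1158 CPM to 1275, 1258 and 1199.7 CPM (log2 0.11 ± 0.028, adjusted p = 0.00114, up to 0.119 under the other settings). RPL27 and RPL23A, both 60S proteins, rose by 0.11 on the log2 scale (edgeR adjusted p = 0.00418 and 0.00363), calls lost under 4 and 3 of 25 other settings, library totals and the upper quartile among them. RPL41, the smallest 60S protein, rose by 0.10 (adjusted p = 0.0225), a call lost under 9 of them, DESeq2 included (adjusted p up to 0.371). RPL14 was the 1 gene of the 77 whose 6 libraries with IFNγ all lay below the 6 without. Over all genes tested, 3.27% were separated in that direction.

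In irradiated cells the calls for the same cytokine were falls. The combination against radiation alone had 0 genes higher and 13 lower, 16.9% of the family against 26.9% of all genes tested (14.5% higher and 12.4% lower). At an unadjusted p under 0.05 from edgeR, 1 gene was higher and 17 lower, and DESeq2 called 0 higher and 11 lower. The groups did not overlap for 29 of the 77, against 40.3% of all genes tested. The median was -0.022 (all genes tested, -0.008). The 13 were 27 with library totals, 32 with the upper quartile and 4 on the family scale. With the 2 compared groups alone 3 genes rose and 15 fell. Over all genes tested, 1509 were called lower in the main fit, 2275 with library totals and 2498 with the upper quartile. The 13 were 6 without radiation replicate 1, 8 without radiation replicate 3, 7 without combination replicate 2 and 5 without combination replicate 3.

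RPL23, a 60S protein that can bind MDM2, fell in both settings. It was at 710.0, 668 and 697 CPM in untreated cells and at 665, 670.0 and 623 CPM with IFNγ, and these groups overlap. It was at 698, 692 and 724 CPM after radiation and at 632, 608 and 600.3 CPM in the combination, which do not overlap. It fell by 5.61% in unirradiated cells (log2 -0.083 ± 0.031, edgeR adjusted p = 0.0339, up to 0.283 under the other settings) and fell by 12.95% in irradiated cells (log2 -0.20 ± 0.031, adjusted p = 4.76e-07). The 2 falls were not shown to differ (interaction -0.12 ± 0.044, adjusted p = 0.162). RPL23 was the 1 gene called lower in both settings, 100% of the 1 and 7.69% of the 13, and 0 were called higher in both by edgeR (1, RPL12, at an unadjusted p under 0.05 in both). Over all genes tested, 7.10% were called lower in both and 9.80% higher in both.

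RPL7, RPL5, RPS3A, RPL14 and RPS7 were the next largest falls in irradiated cells. RPL7, a 60S protein, was at 978, 979 and 980.4 CPM after radiation and at 915, 871 and 828 CPM in the combination (log2 -0.17 ± 0.029, edgeR adjusted p = 4.96e-06). RPL5 was at 982, 968 and 979 CPM after radiation and at 907, 872 and 853 CPM in the combination (log2 -0.15 ± 0.028, adjusted p = 1.25e-05). Neither gene's groups overlapped. In unirradiated cells the IFNγ changes of these 5 genes ran from -0.056 to -0.016 on the log2 scale and none passed the test. RPS6, the 40S target of the S6 kinases, fell by 0.082 ± 0.027 in irradiated cells (adjusted p = 0.0175) and gave 0.010 ± 0.027 in unirradiated cells, a difference that did not pass edgeR's test of the interaction (adjusted p = 0.23).

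**Figure D5:**
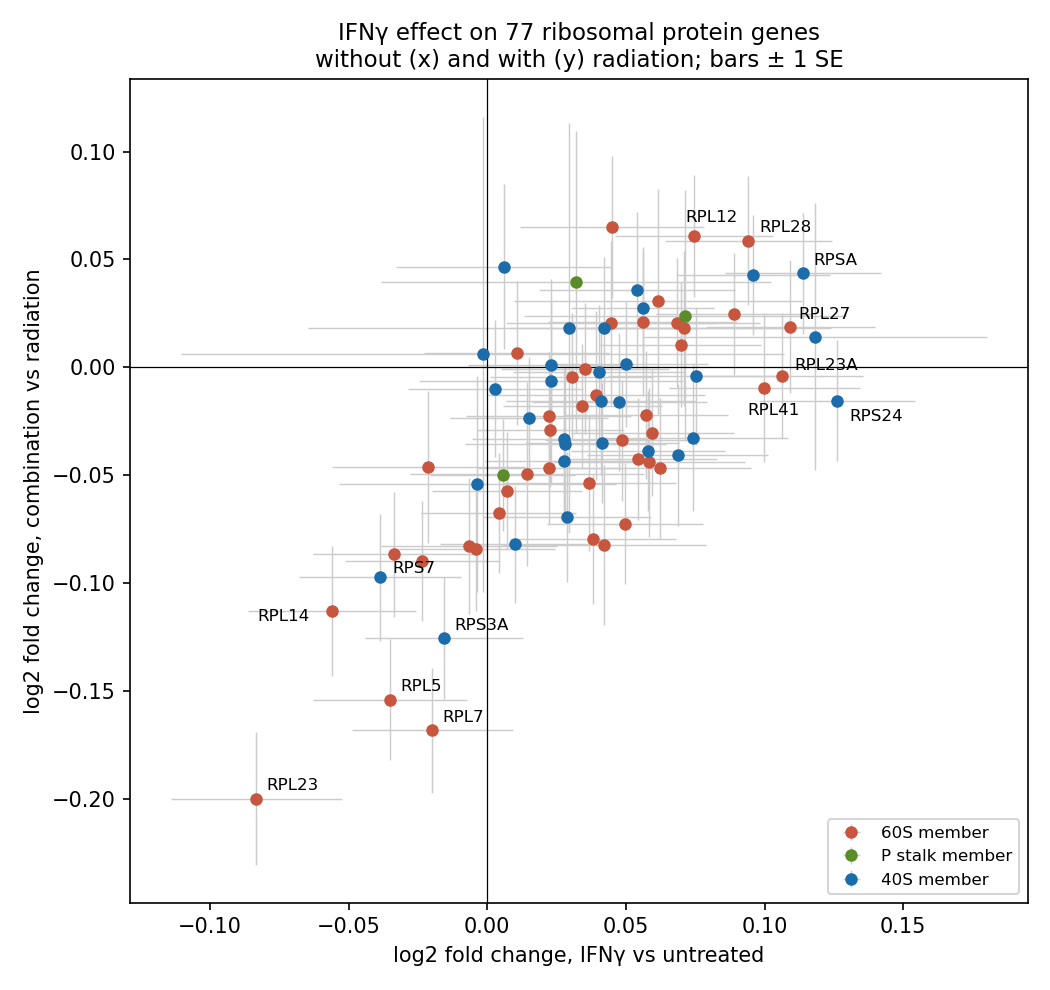
Log2 fold change with IFNγ for each of the 77 genes in unirradiated cells (x axis) and in irradiated cells (y axis); the axes share no library, colours give the subunit and bars are ± 1 SE. RPL23 lies lowest on both axes, at -0.083 and -0.20, and Pearson's r over the 77 genes is 0.69.

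Across the 77 genes, r between the IFNγ changes in the 2 settings was 0.69 and rho 0.62, again as a description, and r fell to 0.52 without IFNγ replicate 2 and 0.54 without untreated replicate 3. The interaction compares the IFNγ change in irradiated cells with that in unirradiated cells. It was below 0 for 73 of the 77 genes, with a median of -0.061 against -0.001 for all genes tested. It passed the test for 2 genes, both lower, RPL7 (-0.15 ± 0.041, edgeR adjusted p = 0.0349) and RPS24 (-0.14 ± 0.040, adjusted p = 0.0377), or 2.60% of the family against 2.38% of all genes tested (1.38% higher and 0.995% lower). At an unadjusted p under 0.05 there were 0 higher and 22 lower. With radiation replicate 1, 2 or 3, IFNγ replicate 1 or 2, or combination replicate 2 or 3 left out, 0 genes passed, with 8 to 19 at an unadjusted p under 0.05. It was 1 without untreated replicate 2 or 3, 5 without untreated replicate 1 and 4 without combination replicate 1. The family's median was -0.045 with library totals, -0.037 with the abundance curve and 0.001 on the family scale. The medians of all genes tested were then 0.015, -0.003 and 0.061. The interaction of a gene was related to its transcript GC content (r = 0.64 over 77 genes, a description with no test). With the GC curve in the fit the relation was -0.39, and the median was -0.068.

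The combination against untreated cells gave 16 genes higher and 16 lower, 41.6% of the family against 62.1% of all genes tested (30.9% higher and 31.2% lower). The groups did not overlap for 27 of the 77, against 64.3% of all genes tested. The split was 12 to 21 with library totals, 10 to 24 with the upper quartile, 31 to 8 with the abundance curve and 24 to 11 with the GC curve. Over all genes tested it was 3534 to 4081 with library totals and 3358 to 4281 with the upper quartile. The largest rises were in RPL28 (17.2%), RPS19 (16.8%), RPS9 (14.9%), RPS20 (13.9%), RPL12 (13.8%) and RPL3 (13.1%). The largest falls were in RPS7, which fell by 14.6%, and RPL23, which fell by 11.3%, followed by RPL6, RPL5, RPS15 and RPL18. This comparison shares libraries with the others, so its values are not a second measurement of them.

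Reads of these genes can also match processed copies elsewhere in the genome. GENCODE release 29 names 1133 pseudogenes after 76 of the 77 genes, with a median of 10 per gene and 91 for RPL23A. RPL28 has 0, RPS9 and RPL27 have 1 each, RPS15 has 2 and RPS19 has 4, whereas RPL12 has 50, RPL7 has 61 and RPL5 has 35. RPL13A has 10, RPL3 has 13, RPS7 has 15, RPS20 has 16 and RPSA has 74. The sources used here do not say how reads with several matches were counted. The levels of genes with many named copies may therefore be less certain, which was not tested.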

How the data were processed

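Per the labels' protocols, total RNA was column-purified with DNase treatment, depleted of ribosomal RNA, made into stranded libraries and sequenced in paired ends; the series' design text names an mRNA protocol instead. The deposited values are unnormalized counts for each gene in a single table. The submitters' processing notes list TopHat2 2.0.13, FastQC 0.11.3, Cuffdiff 2.2.1 and Cufflinks, with the builds hg19 and GRCh37. How reads were counted, by which annotation and with which strand option, is not given in the sources used here.

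Counts were analysed with edgeR 4.0.16 in R 4.3.3: filterByExpr (12160 genes kept), TMM scaling (factors 0.967 to 1.03), 1 robust quasi-likelihood fit over all 12 libraries with a mean per group, and F tests adjusted by Benjamini-Hochberg over all genes tested. Calls are at an adjusted p under 0.05. SE is the log2 fold change over the square root of F. CPM values use TMM-scaled totals. Column names over the annotation columns are shifted, so columns were read by content. The code was tested on simulated data.

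In each comparison the text names up to 6 called members with the largest rises and 6 with the largest falls, members and related genes listed by role, and up to 3 called genes per related list with the largest change; some genes that this rule would name are not reported here. Members and lists were chosen with earlier results of these data known. Alternatives were other scalings (library totals, upper quartile, DESeq2 1.42.0 size factors, TMM without the members, and abundance or length curves), DESeq2, other count filters, a replicate block, fits of the compared groups only and leaving out each library. Scaling with a GC curve and on the members alone were chosen after seeing the data. Transcript lengths and GC are medians over GENCODE 29 protein-coding transcripts. Start sequences are from RefSeq.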

Additional observations from a re-analysis of the deposited data

Results flagged for a closer look

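The effect of IFNγ differed between irradiated and unirradiated cells, by edgeR's test of the interaction, for RPL7 (-0.15 on the log2 scale) and RPS24 (-0.14). For RPL7 the call was lost under 14 of the 24 other settings tried and for RPS24 under 12, with adjusted p-values of up to 0.407 and 0.461. Among the related genes the same test passed for the initiation factors EIF4B (-0.21), EIF2S3 (-0.21) and EIF3A (-0.15), for NPM1, a TOP mRNA (-0.15), and for POLR1E, an RNA polymerase I subunit (-0.32). In each of these related lists 0 genes passed under some of the 24 other settings. Over all genes tested, 2.38% passed (1.38% higher and 0.995% lower). All 7 are negative, that is, IFNγ lowered these mRNAs more, or raised them less, in irradiated cells. Groups of 3 libraries were too small for a check of single outlying values.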

How the results depend on the processing

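The number of the 77 genes called changed with the scaling more than with the tool. For IFNγ against untreated cells the 10 calls became 22 with the GC curve and 2 on the family scale, and 6 to 28 with 1 library left out. For radiation against untreated cells the 28 became 52 with the abundance curve and 18 on the family scale, and 19 to 36 with 1 library left out. For the combination against radiation the 13 became 27 with library totals, 32 with the upper quartile and 4 on the family scale, and 5 to 16 with 1 library left out. For the combination against IFNγ the 31 became 19 on the family scale, and 20 to 36 with 1 library left out. For the combination against untreated cells the 32 stayed between 25 and 39. For the interaction the 2 became 0 with library totals, the abundance curve and the family scale, 1 with the GC curve and with DESeq2, and 0 to 5 with 1 library left out. At an unadjusted p under 0.05 the settings with 0 calls had 13, 8 and 0 genes respectively. Against the counts of other tested genes, mitochondrially encoded genes left out as well, the family's share was 6.16% in untreated cells and 6.05% with IFNγ. It was 6.51% after radiation and 6.16% in the combination. The cause of these changes was not tested.

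Over the more highly expressed genes, same-numbered libraries did not clearly deviate together (r over 0.1 in 2 of 18 pairs, from -0.10 to 0.15). Over the 77 genes, r ran from -0.68 to 0.51. With 3 libraries a group these values cannot show if same-numbered libraries shared a culture or batch. With a replicate block the calls numbered 10, 28, 33, 12, 31 and 2 for IFNγ, radiation and the combination against untreated cells, the combination against radiation and against IFNγ, and the interaction. Of the called genes named in the report and tested under each setting, 0 changed direction. With 3 libraries a group and changes under 0.23 on the log2 scale, a member whose change did not pass the test is not shown to be unchanged.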
